A study of Mus musculus with 45 samples.

Results

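Spleens from mice bearing 4T1 tumors were compared with spleens from mice bearing 4T07 tumors, 14 days after inoculation. The comparison was given by the tumor line and tissue of each sample and took in 6 of the 45 libraries of the series, 3 per line. Of 55367 gene symbols, the 17558 with more than 10 counts over these 6 libraries were tested. The lines 67NR, 4T07 and 4T1 are sister lines that came from a single spontaneous mouse mammary tumor. 67NR stays at the primary site, 4T07 invades without forming overt metastases, and 4T1 metastasizes. Each was injected orthotopically, at the same number of cells, into female BALB/c mice, and healthy controls received no tumor. All mice, controls included, carried polycaprolactone scaffolds under the skin, implanted at 7 to 8 weeks of age and 2 weeks before inoculation. Each tumor group rests on 1 cell line, so that invasive or metastatic behavior cannot be told apart from other differences between the lines. The comparison asks whether the spleen differs between an invasive and a metastatic tumor.

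The spleen filters blood in its red pulp and holds B and T cells in its white pulp. In mice it also makes blood cells, and this output of granulocytes, erythroid cells and platelets can expand when a tumor grows. Neutrophils make their granules in order: azurophil granules in the promyelocyte, specific granules in the myelocyte, then surface receptors and secreted signals in the late cell. Stefins are small inhibitors of cathepsins, and mice carry a cluster of them on chromosome 16 that neutrophils express.

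The 250 bases before the RefSeq start (GRCm38.p6) of 4 stefin genes that were higher in 4T1 spleens are shown because these near copies moved together. Capitals mark the longest run that all 4 share, which begins 32 to 36 bases before the start. The window of Stfa2 is chr16:36408364-36408613 on the minus strand, that of Stfa2l1 chr16:36156561-36156810 on the plus strand, that of Stfa3 chr16:36455393-36455642 on the minus strand and that of Cstdc4 chr16:36183962-36184211 on the plus strand.
Stfa2: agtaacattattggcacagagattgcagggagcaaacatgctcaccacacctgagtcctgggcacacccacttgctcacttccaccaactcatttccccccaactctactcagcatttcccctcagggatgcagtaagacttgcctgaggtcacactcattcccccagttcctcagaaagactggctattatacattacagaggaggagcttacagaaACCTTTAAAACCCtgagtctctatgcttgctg
Stfa2l1: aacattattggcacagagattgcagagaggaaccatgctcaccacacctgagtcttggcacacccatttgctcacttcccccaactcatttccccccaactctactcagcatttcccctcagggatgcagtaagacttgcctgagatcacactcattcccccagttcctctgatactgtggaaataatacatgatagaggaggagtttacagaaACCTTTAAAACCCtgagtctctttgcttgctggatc
Stfa3: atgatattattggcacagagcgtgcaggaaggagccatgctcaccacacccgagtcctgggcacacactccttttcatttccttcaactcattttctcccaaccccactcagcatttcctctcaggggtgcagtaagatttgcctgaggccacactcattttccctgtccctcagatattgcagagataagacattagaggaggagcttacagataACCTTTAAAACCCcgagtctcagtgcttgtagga
Cstdc4: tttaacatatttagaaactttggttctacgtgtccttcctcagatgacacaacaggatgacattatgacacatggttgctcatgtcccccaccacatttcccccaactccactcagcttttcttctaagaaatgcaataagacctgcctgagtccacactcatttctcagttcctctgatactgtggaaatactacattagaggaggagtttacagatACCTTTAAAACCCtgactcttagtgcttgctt

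The run ACCTTTAAAACCC, searched on both strands, was found in 6 of 11714 windows of genes tested (0.0512%), those of Csta3, Cstdc4, Stfa1, Stfa2, Stfa2l1 and Stfa3. The windows of Stfa2 and Stfa2l1 were 89.4% identical when aligned and those of Stfa3 and Cstdc4 68.2%. Reads of such near copies can be split or lost in counting, so that the values of single stefin genes are uncertain.

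The 6 libraries held 3491888 to 5794832 counts, so that 3 counts correspond to 0.518 to 0.859 CPM, the unit of all levels here, in which every library sums to 1000000. Spleen identity was checked with Ighm, the immunoglobulin M heavy chain of B cells, at 1809 to 2602 CPM in 4T07 and 1462 to 2049 CPM in 4T1 spleens, and with Cr2, complement receptor 2, at 125 to 139.6 and 136 to 244 CPM. Some libraries stood apart from their group. The 4T1 spleen library 41 held the lowest sum of 26 mature neutrophil genes among the 4T1 spleens, which read 31824, 13594 and 29837 CPM in libraries 40, 41 and 42. The 4T1 spleen library 42 held the most RNA of 27 exocrine pancreas genes, with 479.6, 688 and 6887 CPM in the 4T1 spleens and 42.4, 759 and 878 CPM in the 4T07 spleens, libraries 28, 29 and 30. Values are given in these orders throughout. In whole spleens, fewer cells of a type and less RNA per cell cannot be told apart.

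A gene was called when its adjusted p was under 0.10 and its fold change over 2 by edgeR's quasi-likelihood test. Of the 17558 genes, 537 (3.06%) were called, 184 (1.05%) higher and 353 (2.01%) lower in 4T1 spleens. The median log2 fold change over all genes was 0.03. Leaving out 1 library moved the count to 958 without library 28, 271 without 29, 341 without 30, 273 without 40, 391 without 41 and 269 without 42. Against the 3 control spleens, 3766 genes (21.4%) were called in 4T1 and 3321 (18.9%) in 4T07 spleens, 2 comparisons that share their controls. Of the 184 genes higher in 4T1, 72 were called above control in 4T1 alone, 34 above control in both groups and 38 below control in 4T07 alone, where 11.3% of all genes were called above and 10.1% below control in 4T1, and 9.59% above and 9.32% below control in 4T07. Of the 353 genes lower in 4T1, 171 were called above control in 4T07 alone and 85 below control in 4T1 alone.

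Among the 12 genes named as highest in 4T1 relative to 4T07 spleens were Wfdc17, Il1b, Socs3, Saa3 and Prok2. Wfdc17, a small secreted protein of myeloid cells, read 508, 310.2 and 587 CPM in 4T1 and 93.9, 63.7 and 47.5 CPM in 4T07 spleens (log2 fold change 2.86, SE 0.27, adjusted p 4.57e-05). Every 4T1 spleen lay above every 4T07 spleen, which the naming rule requires of all 12 genes. Control spleens averaged 23.2 ± 5.03 CPM of Wfdc17 (SD, n = 3). Il1b, the cytokine interleukin 1 beta, read 198, 219 and 172 CPM in 4T1 and 52.5, 46.2 and 47.8 CPM in 4T07 spleens (log2 fold change 2.07, SE 0.15, adjusted p 3.29e-06). The 4T07 spleens overlapped the control spleens, which read 44.1, 51.2 and 44.6 CPM.

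Socs3, a feedback inhibitor of cytokine receptors that signal through STAT3, read 39.1, 31.6 and 33.8 CPM in 4T1 and 12.8, 10.2 and 6.87 CPM in 4T07 spleens (log2 fold change 1.87, SE 0.26, adjusted p 0.00131). Saa3, a serum amyloid gene of the acute phase, read 38.6, 17.1 and 30.4 CPM in 4T1 and 5.15, 6.04 and 4.01 CPM in 4T07 spleens (log2 fold change 2.55, SE 0.45, adjusted p 0.00734). Neither gene overlapped between the groups, which the naming rule requires. Prok2, a chemokine-like peptide of neutrophils, spanned 20.8 to 47.7 CPM in 4T1 and 4.32 to 13.5 CPM in 4T07 spleens. Steap4, a metalloreductase that inflammatory signals induce, spanned 19.3 to 29.9 CPM in 4T1 and 3.15 to 9.47 CPM in 4T07 spleens. Both were called with each library left out in turn.

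**Figure D1:**
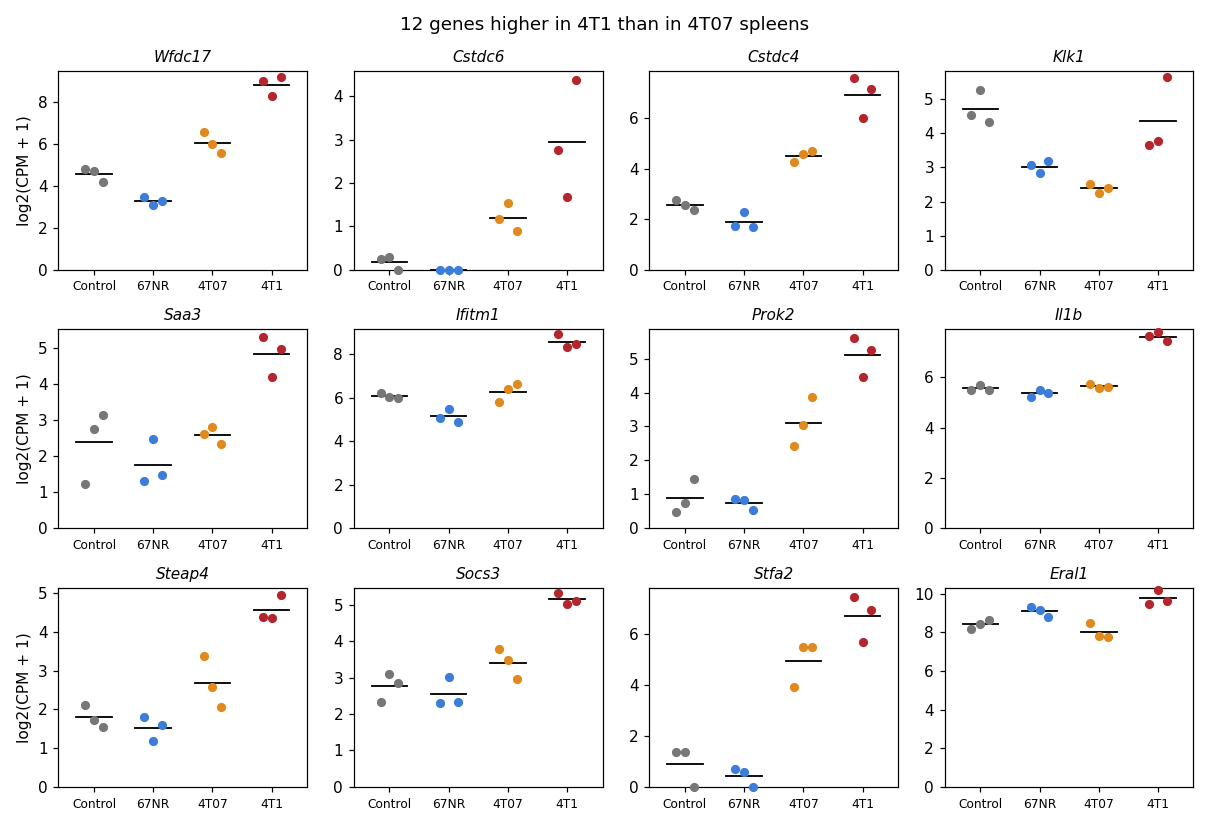
The 12 genes with the largest fold change toward 4T1 by the naming rule, in 12 spleens. The vertical axis is log2(CPM + 1), points are libraries and bars are means of the control, 67NR, 4T07 and 4T1 groups. The naming rule itself requires that the 3 4T1 spleens lie above the 3 4T07 spleens in each panel. For Il1b the 4T07 spleens (46.2 to 52.5 CPM) lie beside control (44.1 to 51.2 CPM).

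Ifitm1, an interferon-inducible membrane protein, read 492, 317 and 359 CPM in 4T1 and 55.0, 82.8 and 99.4 CPM in 4T07 spleens (log2 fold change 2.36, SE 0.25, adjusted p 0.000111). The 4T07 spleens were not called against control for this gene (adjusted p 0.242), and control spleens read 73.2, 64.6 and 63.2 CPM. Ifitm1 is 1 of 9 genes found in the table of a signature that the study chose on the scaffolds of this series. Spleens and scaffolds may share mice, so that the direction of Ifitm1 here is not independent evidence. The other 8 signature genes were not called in spleens. Dhx9, an RNA helicase, and Dusp12, a phosphatase, had log2 fold changes of 0.67 and 0.57, and the remaining 6 (Fhl1, Ndufs1, Pja2, Slc1a3, Soga1 and Spon2) lay between -0.38 and -0.02.

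Eral1, a chaperone of mitochondrial ribosomal RNA, read 718, 1164 and 794 CPM in 4T1 and 353, 225 and 215 CPM in 4T07 spleens (log2 fold change 1.83, SE 0.23, adjusted p 0.000527). Klk1, tissue kallikrein, read 11.5, 12.7 and 49.6 CPM in 4T1 and 4.74, 3.80 and 4.30 CPM in 4T07 spleens (log2 fold change 2.62, SE 0.50, adjusted p 0.012). The highest Klk1 value was in library 42, the library with the most pancreas RNA, and the log2 fold change was 1.5 without it. Klk1 was the only one called of 25 exocrine pancreas genes tested (4%, against 3.06% of all genes), whose median log2 fold change was 2.49. The part of pancreas RNA in the Klk1 difference was not tested. Control spleens, at 19.2 to 37.1 CPM, lay above all 4T07 spleens.

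Of 25 mature neutrophil genes tested, 9 rose and 1 fell, so that 40.0% were called against 3.06% of all genes, and their median log2 fold change was 0.40. Of the 25, 10 were higher in every 4T1 than in every 4T07 spleen, as were 8.06% of all genes. Csf3r, the receptor of granulocyte colony-stimulating factor, read 45.8, 48.5 and 47.1 CPM in 4T1 and 17.3, 13.8 and 11.5 CPM in 4T07 spleens (log2 fold change 1.80, SE 0.17, adjusted p 4.57e-05). Cxcr2, the chemokine receptor that draws neutrophils into the blood, read 163, 112 and 139 CPM in 4T1 and 53.1, 46.4 and 55.8 CPM in 4T07 spleens (log2 fold change 1.48, SE 0.19, adjusted p 0.000775). Both receptors were called above control in each tumor group. Asprv1, a retroviral-type protease, and the pattern receptors Clec4d and Clec4e rose with log2 fold changes of 1.83, 1.57 and 1.5, and were called with each library left out.

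Trem1, an amplifier of myeloid activation, Cebpd, a transcription factor of inflammation, and G0s2, an inhibitor of lipolysis, rose with log2 fold changes of 1.10, 1.01 and 1.08. Cebpe, the transcription factor that switches on specific granule genes, fell, with 46.7, 20.3 and 34.0 CPM in 4T1 and 53.5, 73.0 and 86.5 CPM in 4T07 spleens (log2 fold change -1.01, SE 0.30, adjusted p 0.0852). These 4 calls were lost without library 29, 30 or 42, each left out alone, and the list then held 6 calls. The most abundant members were not called. S100a8, a subunit of calprotectin, read 17958, 7025 and 17621 CPM in 4T1 and 13611, 11009.8 and 14620.2 CPM in 4T07 spleens, which overlap.

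None of 9 azurophil and none of 16 specific granule genes was called by edgeR or by DESeq2. At an unadjusted p under 0.05, which 3275 of 17558 genes (18.7%) passed, stood 1 azurophil gene (Ctsg, cathepsin G) and 5 specific granule genes (Chil1, Cybb, Lcn2, Ltf and Ngp). Log2 fold changes ran from -0.32 to 0.97 in the azurophil list (median 0.10). In the specific granule list they ran from -0.96 to 0.50 (median -0.46). Of the 16 specific granule genes, 6 were lower in every 4T1 than in every 4T07 spleen, where 13.5% of all genes were. Mpo, the myeloperoxidase of azurophil granules, read 976, 374 and 892 CPM in 4T1 and 826, 971 and 1107 CPM in 4T07 spleens, which overlap. Ngp, a specific granule protein, read 2239, 668 and 2064 CPM in 4T1 and 3472, 2611 and 3227 CPM in 4T07 spleens (log2 fold change -0.82, adjusted p 0.225). The specific granule list summed to 8013, 3042 and 7492 CPM in 4T1, 10834, 8311 and 9143 CPM in 4T07 and 1329 to 1469 CPM in control spleens. Against control, 14 of the 16 genes were called higher in 4T1 and 15 in 4T07 spleens, where 11.3% and 9.59% of all genes were.

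**Figure D2:**
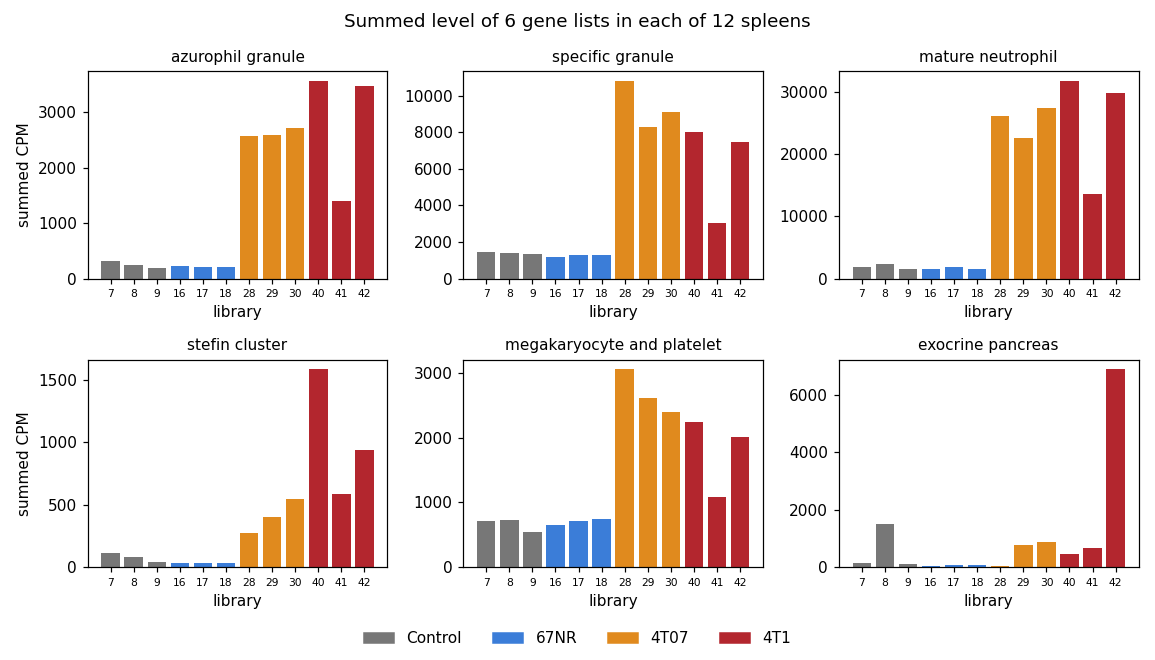
Summed CPM of 6 gene lists in each of 12 spleens, 1 bar per library, colored by group, with axes that start at 0. Granule, mature neutrophil and platelet sums are higher in 4T07 and 4T1 than in control spleens, library 41 is the lowest 4T1 spleen for the 3 neutrophil lists (31824, 13594 and 29837 CPM for the mature list), and library 42 holds most of the exocrine pancreas signal.

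The stefin genes rose in 5 of 8 members tested (62.5% called, against 3.06% of all genes) and none fell. Their median log2 fold change was 1.66. Reads can be split between these near copies, so that the 5 calls may not be independent of each other. Cstdc4 read 189, 63.2 and 141 CPM in 4T1 and 17.9, 22.8 and 24.9 CPM in 4T07 spleens (log2 fold change 2.66, SE 0.32, adjusted p 0.000461). Stfa2 read 175, 51.2 and 125 CPM in 4T1 and 14.2, 44.2 and 43.8 CPM in 4T07 spleens (log2 fold change 1.84, SE 0.48, adjusted p 0.0534), with an adjusted p of 0.246 by DESeq2. Library 41 lay close above the highest 4T07 spleens for Stfa2, while its Cstdc4 value was well apart from them. Stfa3 read 133, 51.4 and 88.7 CPM against 8.24, 31.8 and 49.3 CPM, and Stfa2l1 122, 49.7 and 68.3 CPM against 13.2, 37.8 and 32.1 CPM. Cstdc6, with 5.75, 2.20 and 19.7 CPM in 4T1 and 1.24, 1.90 and 0.859 CPM in 4T07 spleens, was lost without library 29, 30 or 42. The number of stefin genes called was 2 without library 29, 40 or 42 and 3 by DESeq2. Control spleens held 40.5 to 111 CPM of the whole list, 4T07 spleens 277 to 544 CPM and 4T1 spleens 584 to 1583 CPM.

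The 250-base windows were also searched on both strands for TTCNNNGAA, a motif that STAT factors bind. It was found in 9 of 120 windows of genes called higher (7.5%), 13 of 230 of genes called lower (5.65%) and 707 of 11714 of all genes tested (6.04%), so that its share among the genes called was near that of all genes. Of the 12 genes named as higher, 11 had a window, and those of Cstdc4, Socs3 and Steap4 held the motif. The windows of Socs3, chr11:117969367-117969616 on the minus strand, and Steap4, chr5:7960222-7960471 on the plus strand, are shown because both genes are known to answer inflammatory cytokines, with the motif in capitals.
Socs3: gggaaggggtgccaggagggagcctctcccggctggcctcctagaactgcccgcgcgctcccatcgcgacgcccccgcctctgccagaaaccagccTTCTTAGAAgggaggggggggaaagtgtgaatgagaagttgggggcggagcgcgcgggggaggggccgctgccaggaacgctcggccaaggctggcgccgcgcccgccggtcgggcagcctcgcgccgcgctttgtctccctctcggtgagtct
Steap4: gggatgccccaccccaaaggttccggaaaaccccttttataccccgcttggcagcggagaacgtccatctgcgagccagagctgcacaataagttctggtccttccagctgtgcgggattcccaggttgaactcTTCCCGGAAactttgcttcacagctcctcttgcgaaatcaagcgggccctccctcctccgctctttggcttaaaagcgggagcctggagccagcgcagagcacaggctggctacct

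Basophils and mast cells, and eosinophils, were followed with a list each. Of 14 basophil and mast cell genes, 4 fell and none rose (28.6% called), with a median log2 fold change of -1.0. Mcpt8, a protease of basophils, read 13.4, 7.10 and 15.8 CPM in 4T1 and 30.7, 62.5 and 59.6 CPM in 4T07 spleens (log2 fold change -2.0, SE 0.33, adjusted p 0.0047). Prss34, another basophil protease, Mcpt4, a mast cell chymase, and Cd200r3, an activating receptor of both cell types, fell by 1.02, 2.40 and 1.61 on the log2 scale. Of the 4, Mcpt8 alone was called with each library left out, and the count was 1 without library 29, 30, 40 or 41 and 2 without library 42. Epx, eosinophil peroxidase, was the only one called of 10 eosinophil genes (10%, against 3.06% of all genes). It read 71.0, 30.1 and 45.0 CPM in 4T1 and 139.6, 178 and 129 CPM in 4T07 spleens (log2 fold change -1.54, SE 0.29, adjusted p 0.0107). The eosinophil list had a median log2 fold change of -0.37 and reached 0.43. In it 2 genes were lower in every 4T1 than in every 4T07 spleen, where 13.5% of all genes were.

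Of 18 megakaryocyte and platelet genes, 4 fell and none rose (22.2% called, against 3.06% of all genes). Of the 18, 11 were lower in every 4T1 than in every 4T07 spleen, as were 13.5% of all genes. Gp5, a subunit of the platelet receptor of von Willebrand factor, read 52.0, 22.0 and 37.9 CPM in 4T1 and 67.7, 86.3 and 110 CPM in 4T07 spleens (log2 fold change -1.17, SE 0.29, adjusted p 0.0423). Gp1bb, another subunit of this receptor, and Clec1b, the platelet receptor of podoplanin, fell by 1.47 and 1.04 on the log2 scale. Pf4, platelet factor 4, read 889.8, 411 and 778 CPM in 4T1 and 986, 862 and 725 CPM in 4T07 spleens, which overlap. The count of calls was 1 without library 29 or 42 and 0 without library 30 or 41. Library 41 also had the lowest sum of the list, with 2243, 1083 and 2011 CPM in the 4T1 spleens. Against control, 14 of the 18 genes were called higher in 4T1 and 15 in 4T07 spleens, where 11.3% and 9.59% of all genes were.

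B cells arise from precursors that rearrange their immunoglobulin genes, in adult mice mostly in the bone marrow. A list of 10 genes of such precursors was drawn up after their values were seen, and 8 of them fell, with a median log2 fold change of -2.12. Rag1, a subunit of the recombinase, read 1.44, 2.20 and 3.88 CPM in 4T1 and 16.7, 10.7 and 13.2 CPM in 4T07 spleens (log2 fold change -2.33, SE 0.40, adjusted p 0.00627). Control spleens averaged 0.367 ± 0.282 CPM and 67NR spleens 0.869 ± 0.577 CPM of Rag1 (SD, n = 3 each). Both tumor groups were thus above control for this gene, 4T07 more so. The list summed to 137, 178 and 146 CPM in 4T1 and 336, 469 and 411 CPM in 4T07 spleens. In control spleens the sum was 244, 302 and 400 CPM, so that 4T07 overlapped control and every 4T1 spleen lay below. Against control, 5 of its 10 genes were called above and 1 below in 4T1, where 11.3% and 10.1% of all genes were. In 4T07 spleens 8 were called above and 1 below, where 9.59% and 9.32% of all genes were. Vpreb1 and Igll1 encode the surrogate light chain of the pre-B cell receptor. Vpreb1 read 6.23, 5.88 and 8.23 CPM in 4T1 and 17.3, 61.8 and 41.2 CPM in 4T07 spleens, and Igll1 0.959, 0.979 and 1.37 CPM and 5.15, 11.9 and 10.6 CPM. Vpreb3, a chaperone of the same receptor, read 16.1, 24.0 and 16.5 CPM in 4T1 and 76.2, 94.9 and 51.8 CPM in 4T07 spleens (log2 fold change -1.92, SE 0.23, adjusted p 0.000342). These 4 genes were called with each library left out, while the count over the list was 4 without library 29 or 40 and 5 without library 30 or 42.

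Of 22 B cell genes (9.09% called, against 3.06% of all genes), Fcrla, a B cell protein related to Fc receptors, and the precursor gene Vpreb3 given above fell and none rose, and Fcrla was lost without library 28, 40 or 42. Of 27 T cell genes (11.1% called), Cd4, the helper T cell coreceptor, and Tcf7, a T cell transcription factor, rose with log2 fold changes of 1.04 and 1.22, and Il7r, the interleukin 7 receptor, fell by 1.01 on the log2 scale. None of these 3 T cell calls was kept with every library left out. No gene was called by edgeR among 15 plasma cell, 17 natural killer and cytotoxic, 16 monocyte, 10 MHC class II and 13 myeloid suppressor effector genes. At an unadjusted edgeR p under 0.05, which 18.7% of all genes passed, stood 2 plasma cell and 1 natural killer and cytotoxic gene. So did 4 monocyte, 3 MHC class II and 3 myeloid suppressor effector genes. These shares lie on both sides of that of all genes, and DESeq2 called 0. Igkc, the kappa light chain, read 1845, 2926 and 1713 CPM in 4T1 and 3813, 3889.5 and 4071 CPM in 4T07 spleens, with a fold change under 2 (adjusted p 0.0652).

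In the red pulp, Cd5l, a protein that macrophages secrete, was the only one called of 20 genes (5%, against 3.06% of all genes). It read 244, 240.2 and 245 CPM in 4T1 and 99.9, 102 and 97.1 CPM in 4T07 spleens (log2 fold change 1.35, SE 0.19, adjusted p 0.00159), and 169.7, 235 and 179.8 CPM in control spleens. Of 35 erythroid genes, 2 were called (5.71%). Slc25a38, a mitochondrial carrier needed for haem synthesis, rose, with 81.3, 103 and 76.8 CPM in 4T1 and 48.4, 39.3 and 26.3 CPM in 4T07 spleens (log2 fold change 1.26, SE 0.23, adjusted p 0.00875). The other erythroid call, Trim10, was lost without library 29, 30, 40, 41 or 42 and by DESeq2. Hbb-bs, a beta globin, read 44685 to 50990.4 CPM in 4T1 and 38483 to 44671 CPM in 4T07 spleens and was not called. Of 30 cell cycle genes, 1 was called (3.33%), near the share of all genes. It was the kinase Cdk1, with 336, 252 and 342 CPM in 4T1 and 209, 164 and 94.8 CPM in 4T07 spleens (log2 fold change 1.07, SE 0.28, adjusted p 0.0531). This call was lost without library 29, 30, 40 or 42. Junb, a subunit of the AP-1 transcription factor, was the only one called of 14 immediate early and heat shock genes (7.14%). It read 109, 105 and 87.7 CPM in 4T1 and 49.0, 31.1 and 33.8 CPM in 4T07 spleens (log2 fold change 1.48, SE 0.18, adjusted p 0.00053).

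**Figure D3:**
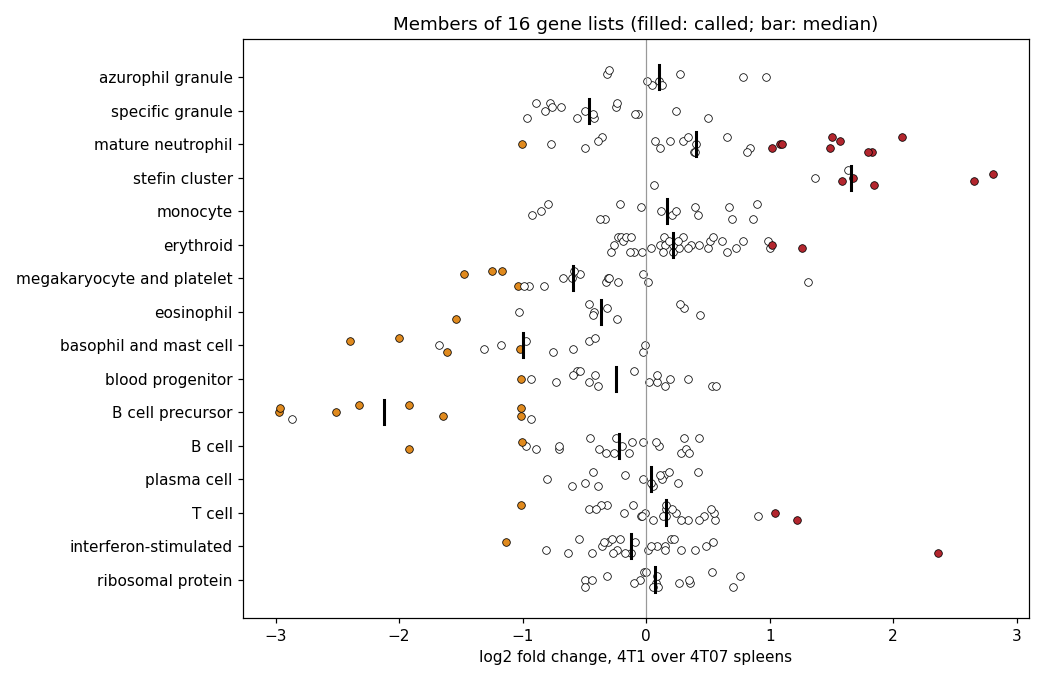
Log2 fold change of 4T1 over 4T07 spleens for the tested members of 16 gene lists, 1 point per gene. Filled points were called and the bar is the median of the list. Stefin genes lie mostly to the right of 0 (median 1.66) and basophil and mast cell genes (median -1.0) mostly to the left. The B cell precursor list (median -2.12) was drawn up after its values were seen, so that its place to the left follows from that choice.

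In other lists 1 or 2 genes were called, where 3.06% of all genes were. Such a call describes the gene and not its list. Of 18 cytokine and growth factor genes (11.1% called), Il1b rose and Ccl2 fell. Of 27 interferon-stimulated genes (7.41%), Ifitm1 rose and Oas3, a sensor of double-stranded RNA, fell by 1.14 on the log2 scale. Of 40 matrix genes (2.5%), Lum, the collagen-binding proteoglycan lumican, fell. Of 10 smooth muscle genes (10%) Tpm2, a tropomyosin, fell, and of 19 endothelial genes (5.26%) Lyve1, a hyaluronan receptor. Of 14 dendritic cell genes (7.14%), Clec10a, a lectin, fell, and of 18 progenitor genes (5.56%) Sox4, a transcription factor. Of 17 clock genes (5.88%) Bhlhe41, a repressor, fell, and of 10 epithelial genes (10%) Dsp, desmoplakin. Of the genes called in these lists, Il1b, Ifitm1, Tpm2 and Lyve1 were called with each library left out, and the others were not. No gene was called by edgeR among 22 hypoxia and glycolysis, 18 ribosomal protein, 15 iron and haem handling, 12 adipocyte, 7 mesothelium and 6 marginal zone macrophage genes or 9 genes of an earlier scaffold signature, and none of 7 islet genes was tested. At an unadjusted edgeR p under 0.05, which 18.7% of all genes passed, stood 2 hypoxia and glycolysis, 4 ribosomal protein and 5 iron and haem handling genes. So did 4 adipocyte, 2 mesothelium, 0 marginal zone macrophage and 1 of the earlier signature genes. These shares lie on both sides of that of all genes. DESeq2 called 0 apart from 2 adipocyte genes.

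The genes lowest in 4T1 relative to 4T07 spleens were of another kind, and most were barely detected in control spleens. Rhox5, a homeobox gene of the germ line that tumor cells can express, read 0, 0.735 and 1.37 CPM in 4T1 and 77.6, 87.8 and 27.8 CPM in 4T07 spleens (log2 fold change -6.38, SE 0.61, adjusted p 0.000322). It had no count in any control or 67NR spleen. Lncenc1, a noncoding RNA of embryonic stem cells, read 0, 0 and 0.685 CPM in 4T1 and 34.6, 22.4 and 15.5 CPM in 4T07 spleens (log2 fold change -6.45, SE 0.60, adjusted p 4.57e-05). Its 3 counts against 352 gave a ratio of 105, with a 95% exact interval of 35.6 to 511 that covers counting error only, and its fitted fold change depends on the prior count.

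Pnma5, of the paraneoplastic antigen family, spanned 0.479 to 2.06 CPM in 4T1 and 11.5 to 40.6 CPM in 4T07 spleens. Cldn9, a claudin of tight junctions, spanned 0 to 0.685 CPM in 4T1 and 5.73 to 18.9 CPM in 4T07 spleens. Brinp3, known from neurons, spanned 0.479 to 2.69 CPM in 4T1 and 23.2 to 40.1 CPM in 4T07 spleens. Csn3, the milk protein kappa casein, Irx1, a homeobox gene, and Prkg2, a cGMP-dependent kinase, followed the same order, with log2 fold changes of -5.18, -4.78 and -4.71. Hmga2, an embryonic chromatin protein found in many tumors, read 2.88, 3.43 and 2.51 CPM in 4T1 and 69.8, 48.3 and 44.1 CPM in 4T07 spleens (log2 fold change -4.12, SE 0.29, adjusted p 3.29e-06). Control spleens averaged 3.10 ± 0.946 CPM of Hmga2 (SD, n = 3). All 12 genes named as lower were called with each library left out and by DESeq2.

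**Figure D4:**
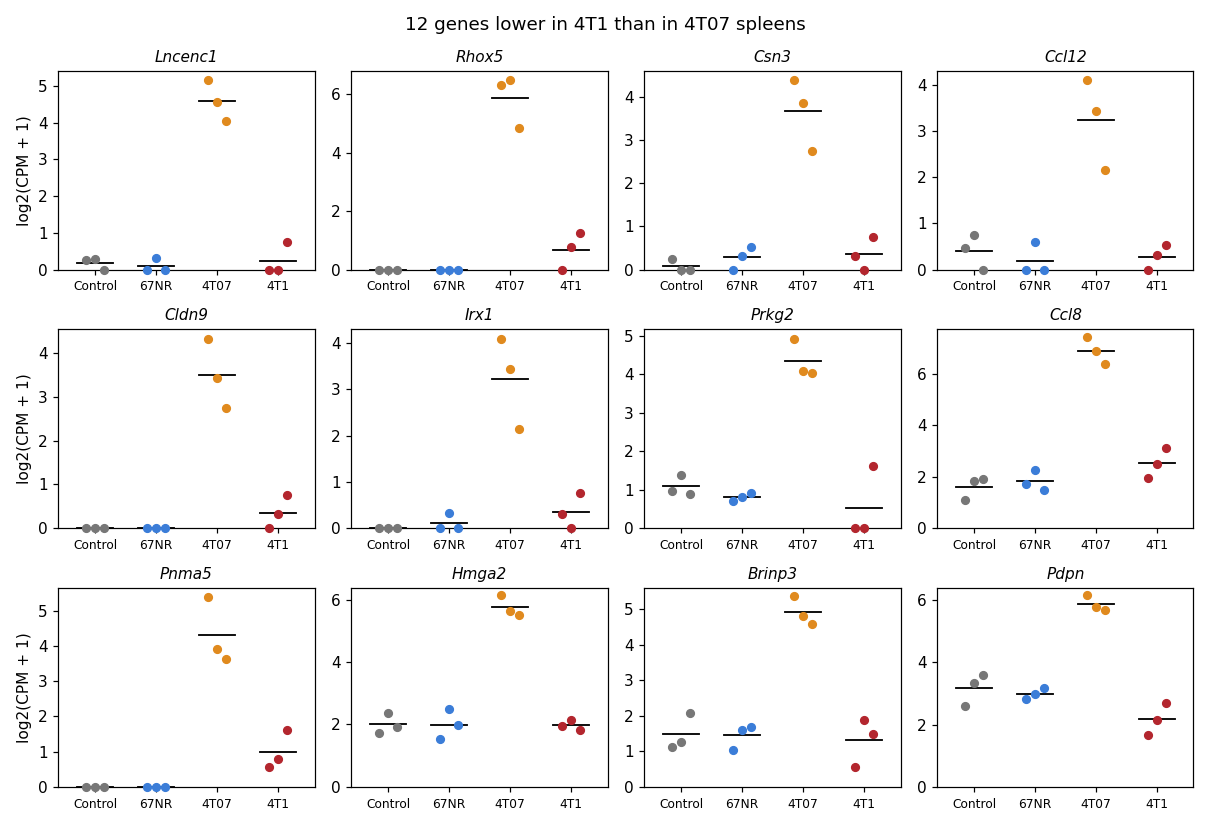
The 12 genes with the largest fold change toward 4T07 by the naming rule, in 12 spleens. The vertical axis is log2(CPM + 1), points are libraries and bars are group means. In each panel the 3 4T07 spleens lie above all other spleens, which the naming rule requires for the 4T1 spleens alone. For Rhox5 every control and 67NR spleen is at 0.

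Pdpn, podoplanin, is a glycoprotein of stromal and lymphatic cells and the ligand of Clec1b. It read 2.16, 3.43 and 5.48 CPM in 4T1 and 71.4, 54.7 and 50.1 CPM in 4T07 spleens (log2 fold change -3.90, SE 0.31, adjusted p 5.85e-06), and 5.05, 9.23 and 11.0 CPM in control spleens. It was the only one called of 12 spleen stroma identity genes (8.33%, against 3.06% of all genes). Ccl8, a chemokine that attracts monocytes and other leukocytes, read 2.88, 4.65 and 7.77 CPM in 4T1 and 169, 118 and 81.6 CPM in 4T07 spleens (log2 fold change -4.49, SE 0.35, adjusted p 5.85e-06), and 1.17, 2.54 and 2.80 CPM in control spleens. Ccl12, of the same gene cluster, read 0, 0.245 and 0.457 CPM in 4T1 and 16.1, 9.84 and 3.44 CPM in 4T07 spleens, and its 3 counts against 147 gave a ratio of 43.8 with a 95% exact interval of 14.7 to 215. Ccl2, the monocyte chemokine that gives the cluster its name here, read 0.719, 1.22 and 0.228 CPM in 4T1 and 12.8, 3.45 and 0.859 CPM in 4T07 spleens, and its call was lost without library 28, 40 or 42. Library 28 was the highest 4T07 spleen for all 3 chemokines. Levels of Ccl8 and Ccl12 in primary tumors are given below.

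Further genes lower in 4T1 spleens were chosen after their values were seen. S100a4, a calcium-binding protein of motile cells, read 69.8, 125 and 96.2 CPM in 4T1 and 1084, 794 and 436 CPM in 4T07 spleens (log2 fold change -2.91, SE 0.33, adjusted p 0.000217), with 162 to 258 CPM in control spleens. Lgals1, galectin 1, read 136, 89.1 and 141 CPM in 4T1 and 531, 533 and 399 CPM in 4T07 spleens. Spp1, osteopontin, read 6.95, 11.8 and 21.7 CPM in 4T1 and 137, 118 and 111 CPM in 4T07 spleens. The groups did not overlap for any of these genes. Retnla, a marker of alternatively activated macrophages, read 0.479, 0.735 and 2.74 CPM in 4T1 and 16.1, 14.5 and 12.6 CPM in 4T07 spleens, and was among 10 genes called above control in 4T07 and below control in 4T1 spleens.

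These 10 genes also held Ckm, the muscle creatine kinase, and Myl1, a myosin light chain, both of skeletal muscle. A list of 12 skeletal muscle genes was drawn up after these values were seen, and of the 8 tested 6 fell in 4T1 spleens and none rose. DESeq2 called 2 of them, and a minimum of 10 counts in each spleen would leave all 6 untested. Ckm read 1.24, 1.21 and 1.43 CPM and Myl1 3.09, 1.90 and 1.15 CPM in 4T07 spleens, and neither had a count in a 4T1 spleen. Acta1, skeletal muscle actin, read 0, 0.245 and 0.685 CPM in 4T1 and 9.68, 6.38 and 4.30 CPM in 4T07 spleens, and Myh4, a fast myosin heavy chain, 0.240, 0.490 and 0.228 CPM and 11.7, 7.42 and 6.59 CPM. The sum of the list was 13.2, 14.9 and 13.9 CPM in 4T1, 56.4, 45.6 and 37.8 CPM in 4T07, 13.2 to 20.8 CPM in control and 14.4 to 17.6 CPM in 67NR spleens. The 4T07 spleens thus lay above the others for the sum of this list, which was chosen on these values. The part of muscle RNA in other differences was not tested.

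The same spleens were examined for RNA of tumor type. Of genes with at least 10 CPM on average in 4T07 primary tumors and at most 3 counts over the control spleens, 59 in all, the sum was 106, 67.5 and 38.1 CPM in 4T07 spleens and 6.23, 6.86 and 17.6 CPM in 4T1 spleens. Control spleens held 2.91 to 5.54 CPM and 67NR spleens 4.61 to 6.50 CPM of them. The 62 genes that 4T1 primary tumors gave by the same rule summed to 6.71, 8.08 and 16.9 CPM in 4T1 and 87.5, 57.3 and 33.8 CPM in 4T07 spleens. The 4T07 spleens were thus higher for the genes of either tumor, and library 42 was the highest 4T1 spleen. Genes of 67NR primary tumors, 50 by the same rule and added after the values were seen, summed to 373, 265 and 141 CPM in 4T07, 5.03, 7.84 and 19.7 CPM in 4T1 and 4.26 to 5.62 CPM in 67NR spleens. The sets overlap. Of the 59 genes of 4T07 tumors, 21 were tested and 9 were called lower in 4T1 spleens. All 9 (Adh7, Aqp5, Csn3, Cyp2c55, Etv4, Gm14124, Irx1, Scx and Steap1) also belong to the 67NR set. Of the 62 genes of 4T1 tumors, 21 were tested and 7 were called lower, and of these all but Dynap also belong to the 67NR set. Genes of both sets were tested only with more than 10 counts over the 6 spleens compared. As both sets summed higher in 4T07 spleens, their members passed this filter largely through these spleens. The calls thus restate the sums, and their shares cannot be weighed against the 2.01% of all genes called lower.

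Several of these genes were higher in 4T07 spleens than in 4T07 tumors. Among primary tumors, the Rhox5 mean was 798 ± 127 CPM for 67NR, 9.14 ± 8.90 CPM for 4T07 and 1.63 ± 0.820 CPM for 4T1 (SD, n = 3 each). It was 64.4 ± 32.1 CPM in 4T07 spleens (SD, n = 3). Of 9 genes with at least 50 CPM in 67NR tumors and at most 3 counts in control spleens, 5 (Cldn9, Fcrls, Lncenc1, Pnma5 and Rhox5) had a higher mean in 4T07 spleens than in 4T07 tumors. The 4T07 spleen means of the 9 genes were 5.13% to 11.2% of the 67NR tumor means, with a median of 8.07%. In other tissues of 4T07 mice, Rhox5 read 47.5, 5.11 and 1.40 CPM in scaffolds, 40.9, 14.9 and 9.33 CPM in lungs and 19.3, 5.62 and 2.54 CPM in primary tumors. In 4T1 mice it reached 13.7 CPM in 1 scaffold and 4.51 CPM in 1 lung. Other genes named as lower were also high in tumors. Ccl8 read 1009, 803 and 819 CPM in 67NR, 1393, 1350 and 1291 CPM in 4T07 and 222, 385 and 278 CPM in 4T1 primary tumors. Ccl12 read 47.0, 109 and 122 CPM, 33.1, 47.7 and 27.4 CPM, and 52.1, 53.9 and 61.9 CPM in the same order. Hmga2 read 658, 442 and 476 CPM, 376, 368 and 459 CPM, and 679, 538 and 768 CPM. The part of RNA of tumor type in the genes lower in 4T1 spleens was not tested.

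**Figure D5:**
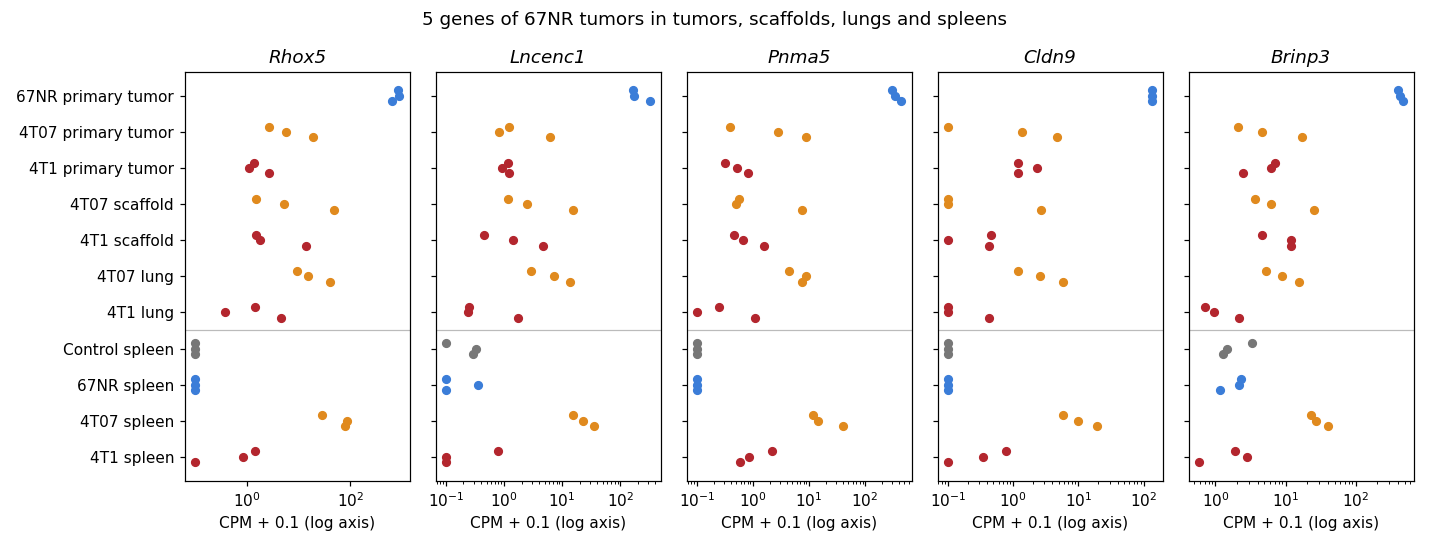
CPM + 0.1, on a log axis, of Rhox5, Lncenc1, Pnma5, Cldn9 and Brinp3 in primary tumors, scaffolds, lungs and spleens, 1 point per library. The 67NR tumors have the highest mean in every panel (Rhox5 798 CPM) and the 4T07 spleens the highest mean among spleens (Rhox5 64.4 CPM).

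Lung epithelial genes, a list drawn up after the values were seen, were lower in 4T1 spleens in 5 of 12 members (41.7% called), and none rose. Since the list was chosen on these values, its share cannot be weighed against the 3.06% of all genes. The number called was 1 without library 40 and 2 without library 29 or 41. Scgb1a1, the secretoglobin of airway club cells, read 1.68, 3.43 and 9.60 CPM in 4T1 and 47.4, 51.4 and 20.0 CPM in 4T07 spleens (log2 fold change -2.92, SE 0.45, adjusted p 0.00335). Sftpc, surfactant protein C of alveolar type 2 cells, read 3.36, 1.47 and 5.71 CPM in 4T1 and 21.6, 16.7 and 9.74 CPM in 4T07 spleens (log2 fold change -2.10, SE 0.46, adjusted p 0.0245), a call that was lost without library 40. The whole list summed to 22.8, 19.3 and 33.8 CPM in 4T1, 113, 103 and 61.0 CPM in 4T07 and 12.2 to 21.8 CPM in control spleens. Ager, of alveolar type 1 cells, overlapped between the groups, at 1.60 to 3.36 CPM in 4T1 and 2.68 to 3.62 CPM in 4T07 spleens. The part of lung RNA in other differences was not tested.

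Whether the difference between 4T1 and 4T07 was itself different in other tissues was tested as an interaction, in fits that take every library as independent because the labels tie no tissue to a mouse, although tissues may share mice. Between spleen and lung, 4958 genes (28.2%) were called. The 3 4T07 lungs stood apart from the 9 other lungs, with 1798 to 3620 CPM of Sftpc against 7939 to 13286 CPM and 445 to 664 CPM of Ppbp, a platelet chemokine, against 16.5 to 48.1 CPM. Ctrb1, a pancreatic protease, spanned 27.1 to 41.1 CPM in these 3 lungs and at most 1.13 CPM in the others. No value without these lungs can be given, since they are all the lungs of 4T07 mice. Kel and Btnl10, genes of erythroid cells, had spleen minus lung differences of 6.09 and 6.14 on the log2 scale, and their means were 81.6 and 34.9 CPM in 4T07 lungs and 1.77 and 0.700 CPM in 4T1 lungs.

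Between spleen and scaffold, 289 genes (1.65%) were called, 98 with a higher and 191 with a lower value in spleen. Irx1, Csn3 and Ccl12 were the named genes furthest toward 4T07 in spleen, with differences of -5.88, -5.83 and -5.82 on the log2 scale (adjusted p 0.00135, 0.0328 and 0.00131 by edgeR). In scaffolds, Ccl12 averaged 9.87 CPM in 4T1 and 6.48 CPM in 4T07 mice. Pdpn averaged 436 and 408 CPM there, and its difference was -4.05 (adjusted p 2.48e-06). Toward 4T1, Asb17os, an antisense transcript whose reads may not be separated from its partner's because the strand setting is not given, and Eral1 had differences of 3.40 and 3.23, and Wfdc17 one of 1.70 (adjusted p 0.0297). Il1b, Saa3, Socs3, Prok2, Steap4 and Ifitm1 did not pass this test or that against lung, and Il1b averaged 263 CPM in 4T1 and 85.9 CPM in 4T07 scaffolds. The count of genes called was 185 without spleen library 29, 186 without 40, 180 without 41 and 161 without 42, and 106 with 4T07 and 4T1 libraries alone in the fit.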

How the data were processed

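RNA was isolated from flash-frozen tissue, and poly(A) 3′ libraries were made with the QuantSeq FWD kit and its molecular identifier add-on. The deposited table holds raw counts per gene symbol for the whole series. Per the submitters' processing notes, reads passed through Trim Galore 0.5.0, STAR 2.6.0 and featureCounts. The genome build, the annotation and whether identifiers were collapsed are not given in the sources used here. Uncollapsed PCR copies would make counting intervals too narrow, and the intervals and the level of 3 counts cover counting error only. Counting 3′ ends makes levels depend on the annotated end of a gene. Levels of different genes were set beside each other only for the CPM thresholds, the choice of abundant members and the list sums. Abundant genes weigh most in such sums.

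From the 55487 lines, 120 of which repeat a symbol, counts were summed to 55367 symbols. 1 column, a control scaffold, was not used, which left 11 scaffolds in the interaction fit. Samples were grouped by the labels' tumor line and tissue. CPM are counts scaled to the library total, without TMM factors. edgeR 4.0.16 (R 4.3.3) fitted all 12 spleens in 4 groups, with TMM factors and the quasi-likelihood F test, on the 17558 symbols with more than 10 counts over the 6 spleens compared, and p-values were adjusted over all of them by the Benjamini-Hochberg method. The fit was tested on simulated counts. An exact permutation test of 3 against 3 samples cannot give a p below 0.1 and was not used. The 3 libraries of a group are described as separate mice.

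The genes named are the 12 with the largest fold change in each direction among those called, without overlap between the groups and with a mean of at least 5 CPM. Beside them stand the called members of the gene lists, up to 4 abundant members that were not called, the scaffold signature, and the 3 genes furthest in each direction of each interaction, where symbols of the Gm or Rik kind were counted but not always named. 1 called list member is not reported here by name. The members and lists were chosen with earlier results of these data known. Alternatives were DESeq2 1.42.0, its size factors in edgeR, 3 other filters on low counts, a fit of the 6 spleens alone and leaving out each of the 6 spleens in turn. Promoter windows were read from RefSeq tables of GRCm38.p6 by symbol, and 11714 of the 17558 symbols had one.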

Additional observations from a re-analysis of the deposited data

Results flagged for a closer look

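The log2 ratio of 4T1 over 4T07 differed between spleen and lung, by the interaction test of edgeR, for 12 of the 24 named genes. The spleen minus lung difference was 2.27 for Cstdc6, 1.25 for Cstdc4, 4.55 for Klk1 and 5.49 for Eral1. It was -2.92 for Lncenc1, -3.04 for Rhox5, -4.56 for Ccl12, -6.56 for Irx1, -5.99 for Prkg2, -2.72 for Ccl8, -1.98 for Hmga2 and -5.58 for Pdpn. Among all genes that met the naming rule in this test, 6030468B19Rik (6.31), Btnl10 (6.14) and Kel (6.09) had the largest positive differences. All of these rest on the 4T07 lungs, which stood apart from the other lungs as described above.

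Between spleen and scaffold the same test was passed by 10 of the 24 named genes. The difference was 1.70 for Wfdc17 and 3.23 for Eral1. It was -5.83 for Csn3, -5.82 for Ccl12, -5.88 for Irx1, -4.42 for Prkg2, -4.96 for Ccl8, -3.08 for Hmga2, -3.77 for Brinp3 and -4.05 for Pdpn. Beyond the named genes, the uncharacterized 6030468B19Rik had a difference of 6.35 and Asb17os one of 3.40.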

How the results depend on the processing

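Leaving out 1 of the 6 spleens in turn gave 269 to 958 genes called between 4T1 and 4T07 spleens, 58 to 486 higher and 193 to 472 lower in 4T1, and 25 to 57 called members over the gene lists (46 with all libraries). A minimum of 10 counts in each of the 6 spleens tests fewer genes and gave 261 calls, 101 higher and 160 lower, and it left 10 of the 12 genes named as lower untested. With only the 6 spleens in the fit, 103 genes were higher. Without a filter on low counts, 70 list members were called. DESeq2 called 453 genes in all, and kept 11 of the 12 genes named as higher and all 12 named as lower. With each spleen left out, 10 of the 12 named as higher and all 12 named as lower were kept. Over these 24 genes and their alternatives, 270 values kept their side of the threshold and 7 lost it. Over all 79 genes followed through the alternatives, called list members included, 848 kept it and 164 lost it, and none changed sign.

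Alternatives added after seeing the data were the control comparisons under these settings, the interactions without single spleens and the tumor genes of other lines. With at least 10 counts in each spleen, 2289 genes were called in 4T1 and 1872 in 4T07 spleens against control. The interaction with scaffold gave 106 genes with 4T07 and 4T1 libraries alone, and 161 to 283 without single spleens. The mean tumor gene level in 4T07 spleens, 70.6 CPM, was 23.8 CPM for genes with at least 50 CPM in the tumor, 30.2 CPM for genes with 0 counts in control spleens and 260 CPM for genes of 67NR tumors, each a different set of genes. The causes were not tested. No paired analysis was possible because the groups share no replicate numbers, and tissues of the same mouse could not be matched.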
